A study of Mus musculus with 34 samples.

Results

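The PAX genes encode transcription factors of early development, and 5 of them, Pax2, Pax3, Pax6, Pax7 and Pax9, were followed through maps of coactivators and histone marks in mouse embryos. They were taken by their symbol in the gene column of the deposited peak tables. The tables give each peak's summit and its distance to the nearest gene, so a gene's position, here called its point, is the base on which at least 2 summits agree. The 5 PAX genes were among 16001 gene symbols with such a point, of 18835 symbols named in the tables. Every peak whose midpoint lay within 100 kb of a point was counted, on a territory of 200 kb a gene. All peak coordinates are on mm9.

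The study mapped tagged coactivators by chromatin immunoprecipitation with the M2 antibody against a FLAG tag, followed by sequencing, at embryonic day 11.5 and in embryonic stem cells (ESC). SMARCA4, the ATPase of the SWI/SNF chromatin remodelling complex, was mapped in limb, heart, face, neural tube, ESC and the main divisions of the brain (forebrain, midbrain and hindbrain), and its partner subunit SMARCC2 in face and hindbrain. The histone acetyltransferase EP300 was mapped in face and ESC, and NCOA1 and NCOA2, which serve nuclear receptors, in hindbrain. This gave 14 FLAG lists, set beside 6 lists from control samples, 7 lists of histone marks and 3 histone inputs, each from 1 library, so no comparison has a replicate check and no p-value was computed.

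The FLAG and control samples came from 129/C57BL/6 embryos with a FLAG knock-in at e11.5, or from ESC of the same line, and each tissue was pooled from about 150 or 300 male and female embryos. The genotype label reads SMARCA4/FLAG knock-in for every FLAG and control sample, those of the other factors included. The 6 control samples are described as input controls, that is, chromatin without the antibody step. Some labels conflict. The tissue label of the SMARCA4 hindbrain sample says forebrain although its title says hindbrain, and the description of the SMARCA4 ESC sample speaks of pooled embryos. The protocol text of the histone samples names heart and hindbrain, while their titles and tissue labels say limb or forebrain. Titles were followed throughout, so the tissue of every histone value below rests on them. By title and tissue label, the histone marks came from limb and forebrain of CD1 embryos of the same day, pooled from about 150: H3K4me1, typical of enhancers, H3K4me3 of gene starts, H3K27me3 of Polycomb, and, in limb only, H3K27ac of active elements. Whole tissues were used, so a signal of few cells and a weak signal of many cells cannot be told apart. The SMARCA4 controls for neural tube, limb, forebrain and heart are not used here.

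PAX proteins bind DNA through the paired domain, and Pax3, Pax6 and Pax7 have a complete homeodomain as well, Pax2 a partial one and Pax9 none. They act with EYA and DACH proteins in networks that set up sense organs, kidney, muscle and parts of the nervous system. Each is active in few cell groups of the embryo, and outside them PAX genes are among the classic targets of Polycomb repression, which leaves H3K27me3 on histones.

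Both H3K4me3 and H3K27me3 commonly lie on CpG-rich gene starts, so the 250 bases before a start are given from RefSeq (GRCm38.p6, a build that is not that of the peaks, so its coordinates are not joined to theirs). The RefSeq table held 7 starts of 4 of the genes: 3 of Pax2, 2 of Pax6 and 1 each of Pax7 and Pax9. Capitals mark CG dinucleotides, the pair that is dense in CpG islands. Sequences run 5′ to 3′ on the gene's strand and end at the base before the start. For Pax2 the start with the most CG pairs is shown.
Pax2, chr19:44756656-44756905, plus strand: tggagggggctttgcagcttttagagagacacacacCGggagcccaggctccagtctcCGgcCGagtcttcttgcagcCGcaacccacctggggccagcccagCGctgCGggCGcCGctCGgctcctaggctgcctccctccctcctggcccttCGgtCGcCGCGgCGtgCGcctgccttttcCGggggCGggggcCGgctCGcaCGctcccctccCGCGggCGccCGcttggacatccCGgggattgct
Pax6, first start, chr2:105668646-105668895, plus strand: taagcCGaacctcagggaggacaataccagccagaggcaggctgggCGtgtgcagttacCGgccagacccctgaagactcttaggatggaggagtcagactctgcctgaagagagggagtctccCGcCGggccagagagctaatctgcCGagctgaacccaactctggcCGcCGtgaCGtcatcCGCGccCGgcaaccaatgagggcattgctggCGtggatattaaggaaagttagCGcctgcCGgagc
Pax6, second start, chr2:105682213-105682462, plus strand: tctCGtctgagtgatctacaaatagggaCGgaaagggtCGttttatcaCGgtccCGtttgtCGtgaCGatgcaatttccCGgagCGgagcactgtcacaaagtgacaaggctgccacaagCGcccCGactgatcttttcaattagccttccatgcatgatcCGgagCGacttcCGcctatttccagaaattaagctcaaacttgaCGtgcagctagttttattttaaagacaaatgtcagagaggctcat
Pax7, chr4:139832969-139833218, minus strand: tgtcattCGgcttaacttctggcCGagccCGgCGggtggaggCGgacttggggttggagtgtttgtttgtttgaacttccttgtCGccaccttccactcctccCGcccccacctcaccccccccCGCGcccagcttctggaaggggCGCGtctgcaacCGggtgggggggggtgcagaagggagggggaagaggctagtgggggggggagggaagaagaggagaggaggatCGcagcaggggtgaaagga
Pax9, chr12:56695221-56695470, plus strand: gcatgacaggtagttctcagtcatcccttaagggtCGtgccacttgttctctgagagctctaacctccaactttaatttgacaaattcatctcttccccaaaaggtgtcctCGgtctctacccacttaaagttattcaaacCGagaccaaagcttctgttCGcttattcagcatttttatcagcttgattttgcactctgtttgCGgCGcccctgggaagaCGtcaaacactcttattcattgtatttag

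The printed Pax2 sequence holds 25 CG pairs, a number that 10.7% of the 32851 RefSeq windows of the same length reach. Each Pax6 sequence holds 15, reached by 27.3% of windows, the Pax7 sequence 13, reached by 31.5%, and the Pax9 sequence 7, reached by 46.3%. The median window has 6. The other Pax2 starts hold 5 and 20. Short motifs were searched on both strands. The GC box GGGCGG, which itself holds a CG pair, was present once in the printed Pax2 and Pax7 sequences and in 1 other Pax2 window, and 32.7% of all windows hold it. The CCAAT box was present once, before the first Pax6 start, and 33.8% of all windows hold it. The TATA box, searched as TATAAA, was in none of the 7 windows, and 12.4% of all windows hold it. The homeodomain core TAAT was present 2 times in each Pax6 sequence, once in that of Pax9 and once in 1 Pax2 window that is not shown, and 54.9% of all windows hold it.

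The point of Pax2 lay at chr19:44831883, on which 33 summits agreed, and that of Pax3 at chr1:78193711, on which 15 agreed. Pax7 lay at chr4:139388883 with 17 summits and Pax9 at chr12:57796625 with 12. Pax6 had a pair of points with 5 summits each, chr2:105509052 and chr2:105516601, 7549 bp apart. Counts were made from the point of lower coordinate, and no count of Pax6 moved by more than 1.5 times from the other point. Pax3 and Pax7 were read on the minus strand, the other genes on the plus strand, from the side that the tables give to each peak. For Pax6 the tables divided, with 5 peaks for the plus strand and 2 for the minus strand.

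Coactivator peaks near the PAX genes came mainly from face and neural tube, whose SMARCA4 lists are the longest FLAG lists, with 35099 and 14362 peaks. SMARCA4 in face had 31 peaks at the 5 genes, with at least 1 at all 5, against 98.0% of all placed genes. SMARCA4 in neural tube had 23, again at 5 of 5 genes, against 89.9% of placed genes. The other SMARCA4 lists had 8 in forebrain (4 of 5 genes, against 71.5%), 4 in ESC (2 of 5, against 61.1%), 2 in midbrain (2 of 5, against 19.7%), 1 in hindbrain (1 of 5, against 58.8%) and 1 in heart (1 of 5, against 74.4%). SMARCA4 in limb had no peak within 100 kb of any of the 5 PAX genes, whereas 63.1% of placed genes had at least 1. The nearest limb peaks lay 212 kb from Pax2, 234 kb from Pax7, 270 kb from Pax6, 461 kb from Pax3 and 501 kb from Pax9.

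Among the other coactivators, SMARCC2 in face had 13 peaks, at 5 of 5 PAX genes, against 74.2% of placed genes. EP300 in ESC had 6 (4 of 5, against 82.9%) and NCOA2 in hindbrain had 2 (2 of 5, against 52.8%). EP300 in face had none at any of the 5, against 52.4% of placed genes, and its nearest peaks lay between 174 kb (Pax2) and 535 kb (Pax9) away. NCOA1 (20.1% of placed genes) and SMARCC2 in hindbrain (16.3%) had none either. Lists hold between 1414 peaks (NCOA1) and 35099 (SMARCA4 in face), so counts are read against each list's own background. SMARCA4 in neural tube stood at 4.60 peaks a PAX gene against 2.84 a placed gene, SMARCC2 in face at 2.60 against 1.73, and SMARCA4 in face at 6.20 against 5.96. Of the 23 neural tube peaks, 9 were at Pax2 and 8 at Pax7.

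**Figure D1:**
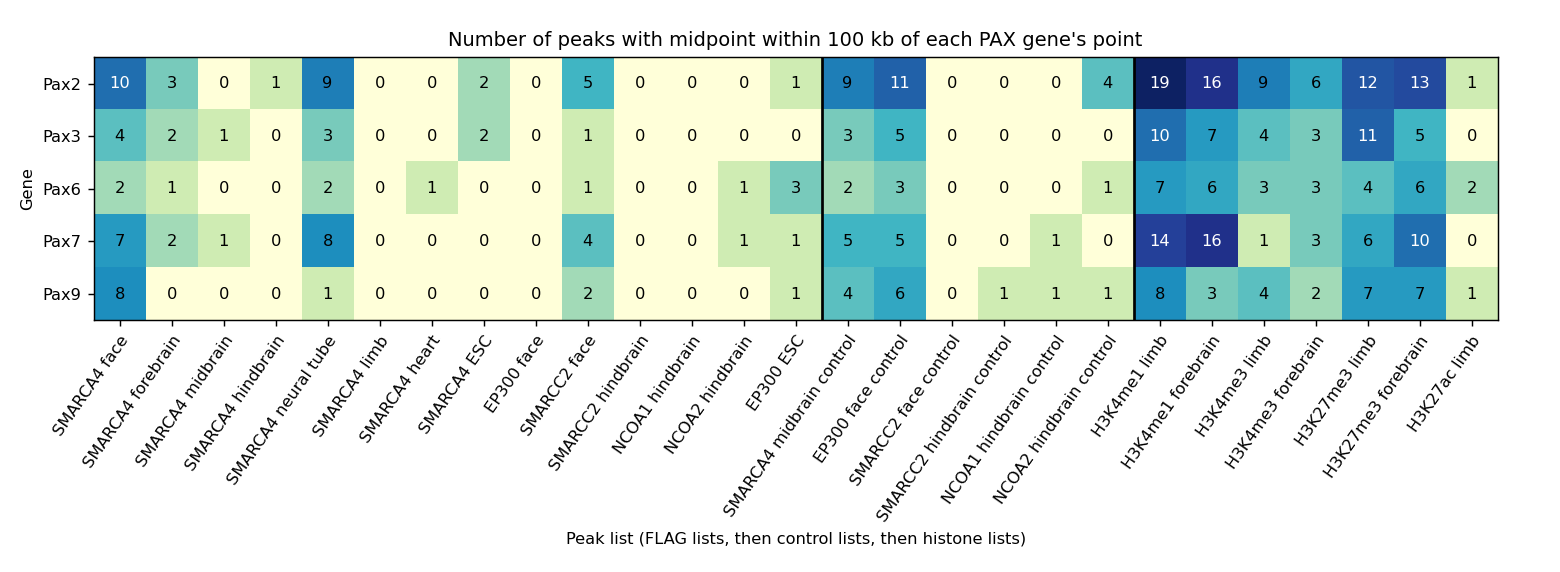
Number of peaks within 100 kb of each PAX gene (rows) in each FLAG, control and histone list (columns, divided by black lines). Colour deepens with the count. SMARCA4 in limb and EP300 in face are 0 at all 5 genes, and the highest FLAG counts are 10 and 9 at Pax2 in face and neural tube.

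In 5 of the 6 pairs of a FLAG list and its own control, the control had more peaks at these genes. At the 5 PAX genes SMARCA4 in midbrain had 2 peaks and its own control 23, EP300 in face had 0 and its control 30, and NCOA2 had 2 and its control 6. NCOA1 had 0 and its control 2, and SMARCC2 in hindbrain had 0 and its control 1. SMARCC2 in face was the exception, with 13 peaks against 0 in its control. Over all placed genes the same controls had at least 1 peak at 94.2% (SMARCA4 midbrain), 96.9% (EP300 face), 71.3% (NCOA2), 21.5% (NCOA1), 14.7% (SMARCC2 hindbrain) and 11.9% (SMARCC2 face). The longest control lists, with 28895 peaks for EP300 in face and 19772 for SMARCA4 in midbrain, are longer than their FLAG lists of 3589 and 1513 peaks over the whole genome. At the 5 genes, 0 FLAG peaks overlapped a peak of their own control, but few could have done so. Only SMARCA4 in midbrain and NCOA2 had both FLAG and control peaks there, with 2 FLAG peaks each. The share of such overlaps over the genome was not computed. The gap between lists was not tested.

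Peaks of the 14 FLAG lists that overlapped by at least 1 bp were merged into regions, which gave 55 regions at the 5 PAX genes. Pax2 had 18 (95% Poisson interval 10.7 to 28.4, counting error only), a number that 6.39% of placed genes reached. Pax7 had 16 (9.15 to 26.0, reached by 12.1% of genes), Pax9 had 9 (4.12 to 17.1, reached by 53.7%), Pax3 had 7 (2.81 to 14.4, reached by 68.7%) and Pax6 had 5 (1.62 to 11.7, reached by 82.4%). The median of the 5 was 9 regions, and the median of all placed genes was also 9. Neighbours in this order have overlapping intervals, while the intervals of Pax2 and Pax6 overlap only between 10.7 and 11.7. When FLAG peaks over any of the 6 control lists were left out, Pax2 had 11 regions, Pax3 4 and Pax9 5, and the 5 genes had 18 SMARCA4 peaks in face and 9 in neural tube. When every FLAG list was limited to its 1414 highest-ranked peaks, the length of the shortest, 3 of the 55 regions were left, 1 each at Pax2, Pax6 and Pax7, against 12468 regions in the genome, where all peaks gave 61476. As a percentile of its own list, with the top of the list at 0, the rank of the SMARCA4 peaks at the 5 genes had a median of 48.8% in face and 67.9% in neural tube.

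Pax2, which specifies kidney, inner ear, optic stalk and a class of spinal interneurons, had the most coactivator peaks of the 5. SMARCA4 had 10 in face, 3 in forebrain, 0 in midbrain, 1 in hindbrain, 9 in neural tube, 0 in limb, 0 in heart and 2 in ESC. SMARCC2 in face had 5, EP300 in ESC 1, and the other 4 FLAG lists 0. The neural tube count of 9 was reached by 2.47% of placed genes and the face count of 10 by 17.0%. Control peaks were frequent there too: the 6 control lists had 24 at Pax2, a number reached by 6.11% of placed genes, 11 of them in the EP300 face control, reached by 6.28%. When FLAG peaks over any control list were left out, Pax2 had 2 peaks in neural tube and 6 in face. The regions were spread evenly, 9 upstream and 9 downstream of the point.

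The most shared Pax2 region lay 60.9 kb upstream, at chr19:44769551-44772463, and held peaks of 5 lists: SMARCA4 in face, hindbrain, neural tube and ESC, and SMARCC2 in face. It lay over H3K4me1 in forebrain, over H3K27me3 in limb and forebrain, and over 1 peak of the EP300 face control. Its ESC peak was rank 538 of 6764 in that list, with 21 tags (the authors' count of reads in the peak) and the authors' fold enrichment of 13.4, whose denominator is not stated. Its hindbrain peak, the only one that SMARCA4 in hindbrain had near any of the 5 genes, held 30 tags. A second shared region lay 79.6 kb downstream, at chr19:44909501-44913500, with SMARCA4 in face and neural tube, SMARCC2 in face and EP300 in ESC. The highest-ranked SMARCA4 face peak near any PAX gene lay there, at rank 5181 of 35099, and peaks of 3 controls overlapped it. Over the Pax2 point a region of 6450 bp was built from SMARCA4 in forebrain and neural tube, and 2 controls overlapped it. Of 9 FLAG peaks that the tables name to Pax2, 5 lay in introns, 3 upstream and 1 downstream, as the abbreviated class headers are read here.

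Pax7, which acts in dorsal neural tube, neural crest and muscle progenitors, came next. SMARCA4 had 7 peaks in face, 2 in forebrain, 1 in midbrain, 8 in neural tube and 0 in hindbrain, limb, heart and ESC. SMARCC2 in face had 4 and NCOA2 and EP300 in ESC had 1 each. The neural tube count of 8 was reached by 4.29% of placed genes. Without FLAG peaks over a control it had 6 in neural tube and 5 in face, and the 6 control lists had 11 peaks at Pax7, reached by 50.3% of genes. Of the 16 regions, 11 lay downstream of the point, and 6 of the 7 FLAG peaks named to Pax7 in the tables were intronic.

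A group of Pax7 regions lay between 61.2 and 86.9 kb downstream of the point. The most shared one, at chr4:139322551-139325001, 65.1 kb downstream, held SMARCA4 in face and neural tube, SMARCC2 in face and EP300 in ESC. No control peak overlapped it or any of the other 4 regions of that group. Its SMARCC2 peak held 146 tags and its EP300 ESC peak 17, at rank 1526 of 10356. The midbrain peak of SMARCA4 lay 21.6 kb downstream with 53 tags and shared its region with a face peak. The deposited table lists a false discovery rate of 100% for it, as for all 1513 peaks of that list. The 2 forebrain peaks lay upstream, at 67.4 and 93.2 kb, in regions that no other FLAG list shared. The NCOA2 peak lay 1.16 kb downstream of the point, with 17 tags and a listed false discovery rate of 12.7%.

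**Figure D2:**
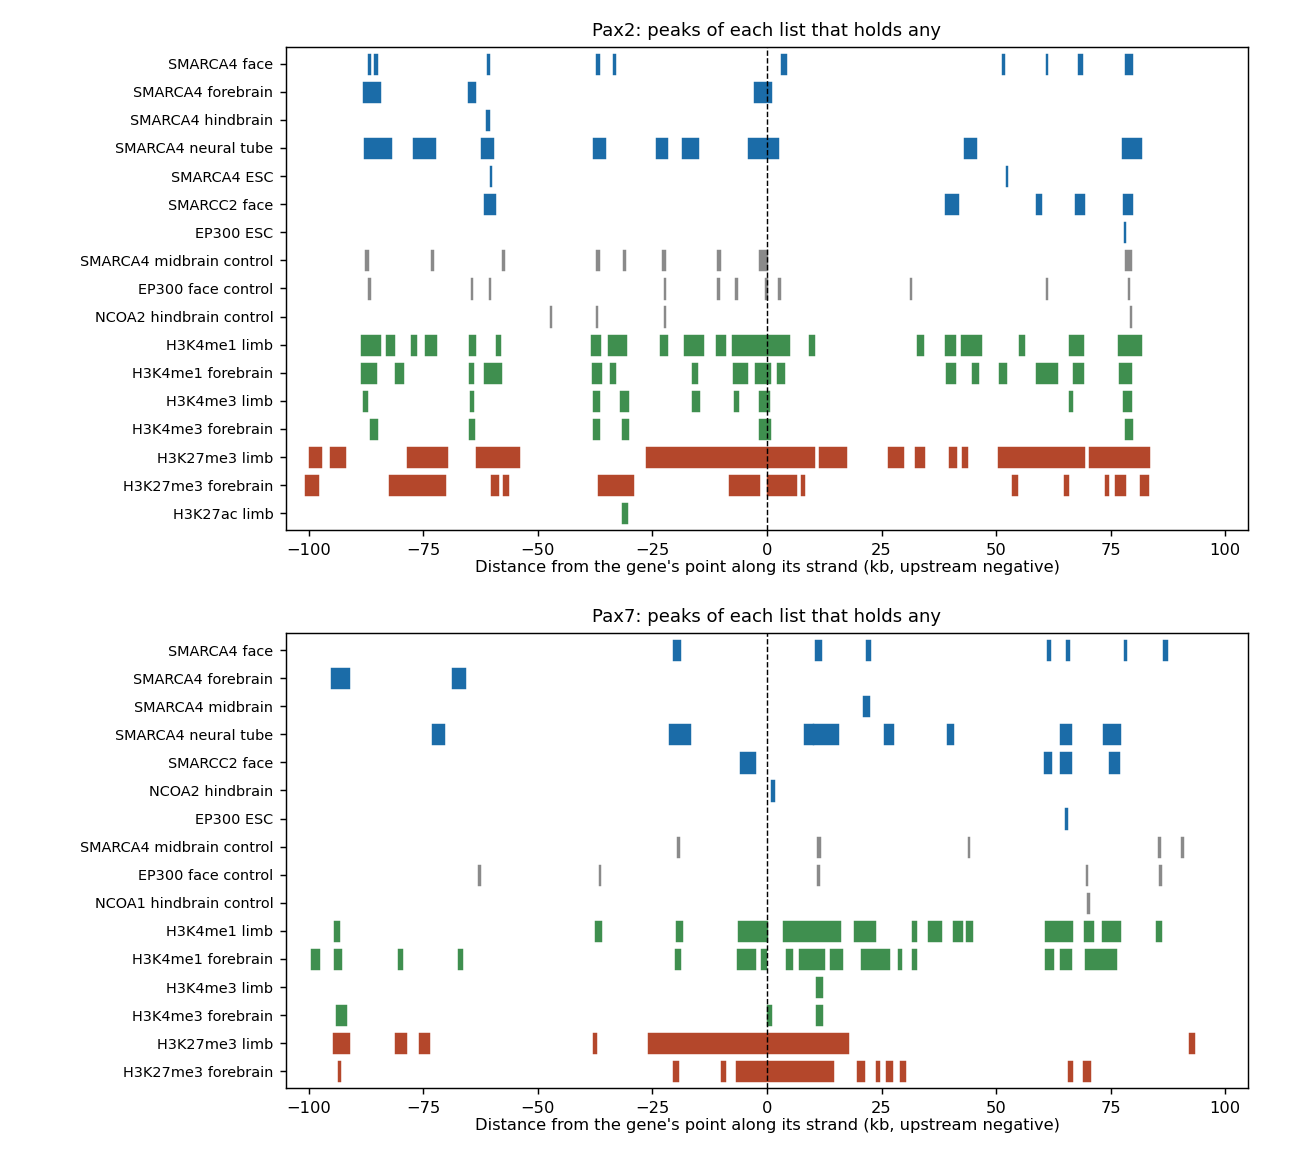
Peaks of each list around Pax2 and Pax7, by distance from the gene's point in kb along its strand (upstream negative), drawn to scale. FLAG peaks are blue, control peaks grey, H3K27me3 red and the other histone marks green. Most FLAG regions of Pax2, on both sides, lie over red limb blocks, while those of Pax7 beyond 60 kb downstream do not.

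Pax3, the close relative of Pax7 in dorsal neural tube, neural crest and limb muscle precursors, had 4 SMARCA4 peaks in face, 3 in neural tube, 2 in forebrain, 2 in ESC, 1 in midbrain and 0 in hindbrain, limb and heart. SMARCC2 in face had 1 and the other 5 FLAG lists 0. Its point lay in a region of SMARCA4 in face and forebrain at chr1:78191351-78195650, which peaks of 2 controls also overlapped. A region 56.4 kb downstream, at chr1:78136301-78138400, joined SMARCA4 in neural tube and ESC with SMARCC2 in face and was free of control peaks. The ESC peak there held 6 tags and the SMARCC2 peak 38. The midbrain peak of Pax3, 53.9 kb downstream, was rank 1502 of 1513 with 14 tags. A further region 7.51 kb downstream joined SMARCA4 in face, forebrain and neural tube, and a midbrain control peak overlapped it.

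Pax6, the regulator of eye, forebrain and ventral spinal progenitors, had the fewest regions. SMARCA4 had 2 peaks each in face and neural tube, 1 each in forebrain and heart, and 0 in midbrain, hindbrain, limb and ESC. SMARCC2 in face and NCOA2 in hindbrain had 1 each, and EP300 in ESC had 3, its highest count at any of the 5. The region 56.7 kb upstream, at chr2:105450751-105453950, held 5 lists, SMARCA4 in face, forebrain, neural tube and heart and SMARCC2 in face. This region held the only heart peak of SMARCA4 near a PAX gene, with 20 tags and an authors' fold enrichment of 5.30. It was also the only one of the 55 regions that overlapped H3K27ac in limb, and 1 control peak, of SMARCA4 midbrain, overlapped it. The region 5.45 kb downstream, at chr2:105511651-105517350, contained the second Pax6 point and joined SMARCA4 in neural tube, NCOA2 in hindbrain and EP300 in ESC. The NCOA2 peak held 33 tags at rank 707 of 3444, and 2 controls also had peaks in that region.

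Pax9, which acts in pharyngeal pouches, tooth buds, palate and sclerotome, had most of its peaks in face. SMARCA4 had 8 peaks in face, 1 in neural tube and 0 in the other 6 lists. SMARCC2 in face had 2 and EP300 in ESC 1. The face count of 8 was reached by 30.6% of placed genes, so it is common in that list. Their ranks ran between 10326 and 33375 of 35099. Without the SMARCA4 face list, 2 of the 9 Pax9 regions were left. The region 14.1 kb upstream, at chr12:57781601-57783400, joined SMARCA4 in face and neural tube with SMARCC2 in face, and 2 controls overlapped it. The region 83.9 kb upstream joined SMARCC2 in face and EP300 in ESC and lay near Nkx2-9, a homeobox gene whose point is 82.4 kb upstream of Pax9. The SMARCC2 hindbrain control also had a peak in that region. Another of the 9 regions, made of 1 of the 8 SMARCA4 face peaks, lay 81.6 kb upstream and so near Nkx2-9 too. The tables named 5 FLAG and control peaks near Pax9 to Nkx2-9 and 11 to Pax9 itself.

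**Figure D3:**
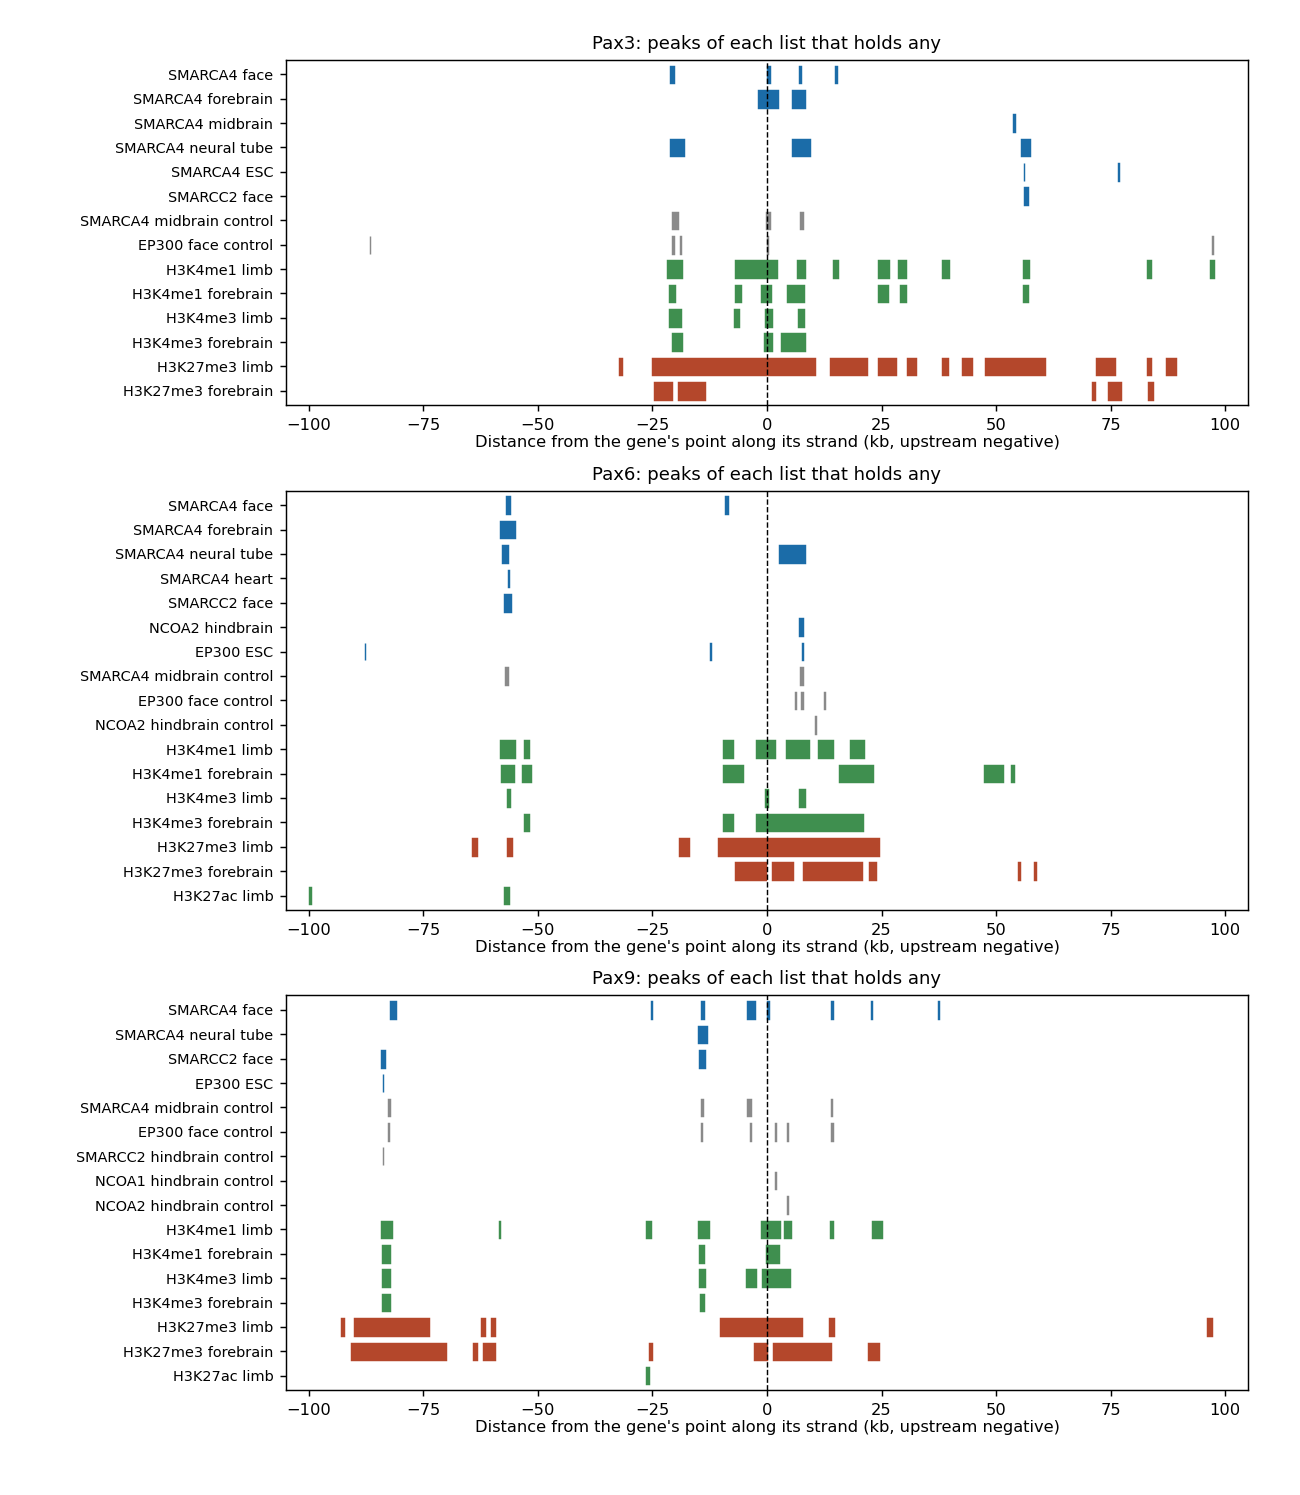
Peaks of each list around Pax3, Pax6 and Pax9, by distance from the gene's point in kb along its strand (upstream negative), drawn to scale with FLAG peaks blue, control peaks grey, H3K27me3 red and other histone marks green. A limb H3K27me3 block spans each point, and the widest forebrain H3K4me3 block of the 5 genes, of 23.5 kb, lies over Pax6.

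Of the 55 regions, 35 were held by 1 FLAG list (63.6%, against 66.3% of all 61476 FLAG regions of the genome) and 9 by 3 or more (16.4%, against 22.2%). SMARCA4 peaks of face and neural tube near the PAX genes overlapped each other in 38.7% of the face peaks (12 of 31) and 47.8% of the neural tube peaks (11 of 23). Over all peaks the share was 30.2% of face peaks and 72.1% of neural tube peaks. Of the 13 SMARCC2 face peaks, 7 (53.8%) lay over a SMARCA4 face peak, against 72.4% of all SMARCC2 face peaks. Of the 8 SMARCA4 forebrain peaks, 4 (50%) lay over a face peak, against 90.6% of all. The authors' conservation score had a median of 548 in the 13 SMARCC2 face peaks and of 375 in the whole list, and of 530 in the 6 EP300 ESC peaks against 395 in its list. Controls had a similar gap, with 519 at the PAX genes against 386 in the whole EP300 face control.

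H3K27me3 covered more of the territory of each of the 5 PAX genes than of the median placed gene, in both tissues. In limb the mark covered 106 kb of the 200 kb around Pax2, 74.2 kb around Pax3, 53.6 kb around Pax7, 39.7 kb around Pax6 and 38.7 kb around Pax9, where the median placed gene had 3.88 kb. Cover as wide as that of Pax2 was reached by 0.169% of placed genes, of Pax3 by 0.575%, of Pax7 by 1.56%, of Pax6 by 3.60% and of Pax9 by 3.91%. In forebrain it covered 44.4 kb around Pax2, 42.8 kb around Pax9, 30.8 kb around Pax7, 26.9 kb around Pax6 and 14.4 kb around Pax3, where the median placed gene had 0.879 kb. These were reached by 0.362% (Pax2), 0.394% (Pax9), 0.775% (Pax7), 1.12% (Pax6) and 3.27% (Pax3) of genes. Within 50 kb the limb shares ran from 0.344% (Pax3) to 6.27% (Pax9) and the forebrain shares from 0.425% (Pax7) to 3.11% (Pax3). Within 200 kb they ran from 0.269% (Pax2) to 11.1% (Pax6) in limb and from 0.387% (Pax2) to 2.87% (Pax3) in forebrain. Within 100 kb, limb cover was wider than forebrain cover at 4 of the 5 genes and narrower at Pax9, and it was wider in the median gene too. Part of the Pax9 cover lay near Nkx2-9, whose point is 82.4 kb upstream. The widest forebrain block of that territory, of 20.8 kb, lay 80.4 kb upstream, and a limb block lay 81.9 kb upstream. Within 50 kb of the Pax9 point the mark covered 19.0 kb in limb and 18.5 kb in forebrain.

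Single blocks ranked near the top of their lists, by the rank that the deposited lists give, but most did not. With the top of the list at 0, the 40 limb blocks at the 5 genes had a median rank of 49.2%. The 41 forebrain blocks had a median of 38.3%. Those named below are the blocks over the points or the best of a gene. The limb block over the Pax2 point, chr19:44805507-44842226, was 36.7 kb long and rank 5 of 13137. The limb block over Pax6 was rank 81 and 35.3 kb long, that over Pax7 rank 211 and 43.6 kb, that over Pax3 rank 384 and 35.5 kb, and that over Pax9 rank 647 and 17.9 kb. In forebrain the block over the Pax9 point was 2.91 kb long and rank 11 of 11073. The best forebrain block of Pax3 was rank 16 and lay 16.5 kb upstream of the point, which itself held no peak of the mark.

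**Figure D4:**
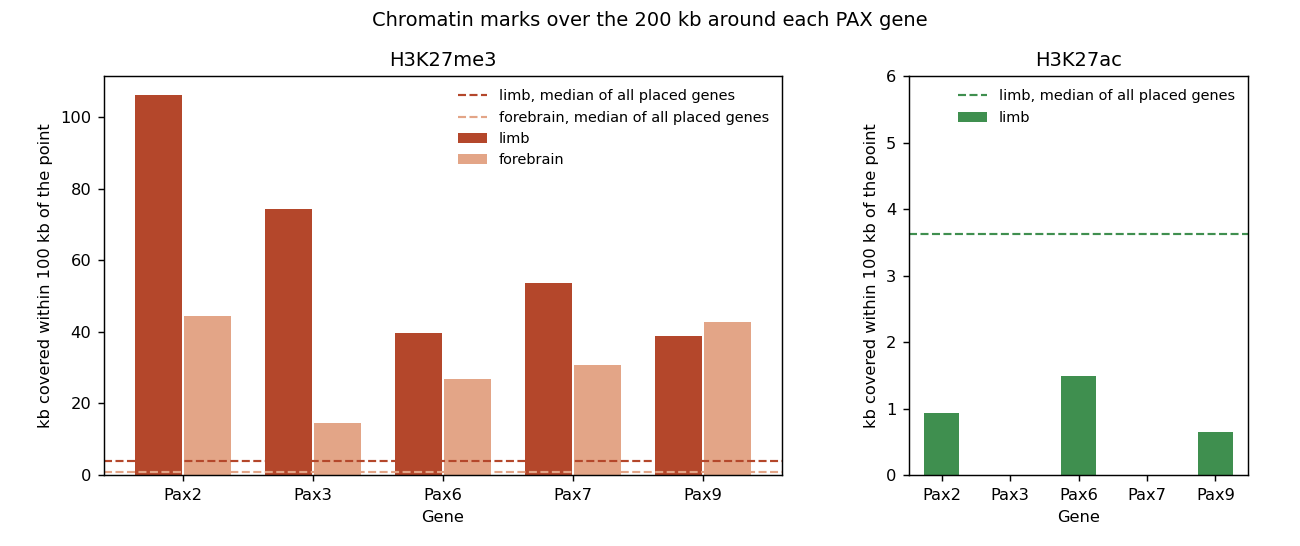
Length in kb covered by H3K27me3 in limb and forebrain (left) and by H3K27ac in limb (right) within 100 kb of each PAX gene's point, 1 library each. Dashed lines are the median of all placed genes. H3K27me3 bars reach 14.4 to 106 kb, far above medians of 3.88 kb in limb and 0.879 kb in forebrain, and H3K27ac bars lie below 3.63 kb.

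At the points the peak calls differed between limb and forebrain. In limb the point of 5 of 5 PAX genes lay in H3K27me3, against 22.6% of placed genes, and in forebrain that of Pax7 and Pax9, 2 of 5, against 3.72%. The difference is narrow at Pax2, whose point lay 71 bp from a forebrain block, and at Pax6, 209 bp from one, while the nearest forebrain block of Pax3 began 13565 bp away. H3K4me3 in limb lay over 4 of 5 points, all but Pax7 (70.0% of placed genes), and H3K4me3 in forebrain over 4 of 5, all but Pax9 (69.1%). Both marks together lay over 4 of 5 points in limb (18.7% of placed genes) and in forebrain over that of Pax7 alone (2.79%). H3K4me1 lay over 4 of 5 points in limb (55.2%), all but Pax7, and over Pax2, Pax3 and Pax9 in forebrain (31.1%). H3K27ac in limb lay over 0 of 5 points, against 49.8% of placed genes.

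At Pax6 the H3K4me3 peaks differed in length between the tissues. Its limb H3K4me3 peak at the point used for counting was 0.655 kb long, at rank 19681 of 19688, inside an H3K27me3 block of 35.3 kb. The second Pax6 point, with equal support, lay in a longer limb H3K4me3 peak of 1.14 kb, at rank 15209. In forebrain, where Pax6 marks the progenitors of the cortex, H3K4me3 formed 1 block of 23.5 kb, chr2:105506548-105530015, at rank 2447 of 16544. No H3K27me3 peak covered either Pax6 point in forebrain, although blocks lay close by, and the widest forebrain block of that mark, 12.8 kb at chr2:105516949-105529757, lay within the H3K4me3 block. Pax7 had no H3K4me3 at its point in limb and a short peak of 0.918 kb in forebrain, under an H3K27me3 block of 21.3 kb.

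SMARCA4 in face lay over the points of Pax3 and Pax9 (44.8% of placed genes), in forebrain over those of Pax2 and Pax3 (28.8%), in neural tube over that of Pax2 alone (51.3%), and in limb over none (24.8%). No other FLAG list covered a point used for counting. The SMARCA4 midbrain control covered the points of Pax2 and Pax3 (53.4% of placed genes) and the EP300 face control that of Pax3 (35.8%).

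H3K27ac, mapped in limb only, was sparse. It had 4 peaks at 3 of the 5 PAX genes, where 88.8% of placed genes had at least 1: 2 at Pax6, 1 each at Pax2 and Pax9, and 0 at Pax3 and Pax7. It covered 1.49 kb around Pax6, 0.929 kb around Pax2 and 0.655 kb around Pax9, against 3.63 kb around the median gene. Peaks of the other marks were present at 5 of 5 genes: 58 of H3K4me1 in limb (97.5% of placed genes) and 48 in forebrain (94.6%), 21 of H3K4me3 in limb (95.3%) and 17 in forebrain (94.2%), and 40 of H3K27me3 in limb (72.3%) and 41 in forebrain (60.0%). The 3 histone inputs had no peak at any of the 5, against 18.5% of placed genes in the limb input for the methylation marks, 4.06% in that of forebrain and 7.82% in the limb input for H3K27ac. H3K4me1 cover was widest at Pax2, with 55.3 kb in limb and 35.6 kb in forebrain, and at Pax7, with 47.0 kb in limb and 39.5 kb in forebrain, where the median gene had 14.6 kb in limb and 7.92 kb in forebrain.

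Most coactivator regions overlapped these H3K27me3 blocks. Of the 55 FLAG regions at the PAX genes, 43 (78.2%, 95% Clopper-Pearson interval 65.0 to 88.2, counting error only) overlapped H3K27me3 of limb or forebrain, against 17.0% of all FLAG regions. By gene these were 17 of 18 at Pax2, 7 of 7 at Pax3, 3 of 5 at Pax6, 9 of 16 at Pax7 and 7 of 9 at Pax9. In limb alone the mark covered 38.7 kb (Pax9) to 106 kb (Pax2) of each 200 kb, against 3.88 kb around the median gene. Overlap and cover are therefore not separate results, and the overlap that such cover alone would give was not computed. Regions that share a block are not independent, which the interval leaves out. H3K27ac in limb overlapped 1 of 55 (1.82%, interval 0.0460 to 9.72), against 22.7% of all FLAG regions. Only 4 peaks of that mark lay in these territories, which limits how many regions could overlap it. SMARCA4 in limb gave none of the 55 regions, while its 5251 peaks are among those that make up the regions of the genome. H3K4me1 of either tissue overlapped 44 (80%, against 59.7%), H3K4me3 of either tissue 20 (36.4%, against 31.5%) and any of the 6 controls 20 (36.4%, against 30.9%). Regions at the PAX genes had a median length of 1794 bp, against 468 bp over all, and longer regions overlap a mark more easily. When only the midpoint of a region was placed, a reading added after the data were seen, 38 of 55 (69.1%) lay in H3K27me3 of either tissue, against 8580 of all 61476, and 33 (60%) in that of limb, against 13.3% of all regions in that of limb. Without peaks over a control, 27 of 38 regions (71.1%) overlapped H3K27me3 of either tissue, against 11.5% of all such regions, and without the SMARCA4 face list 31 of 40 (77.5%), against 18.9%. The marks were mapped in limb and forebrain and most of the regions come from face and neural tube, so the mark and the coactivator were not measured in the same tissue, and whether they share cells was not tested.

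**Figure D5:**
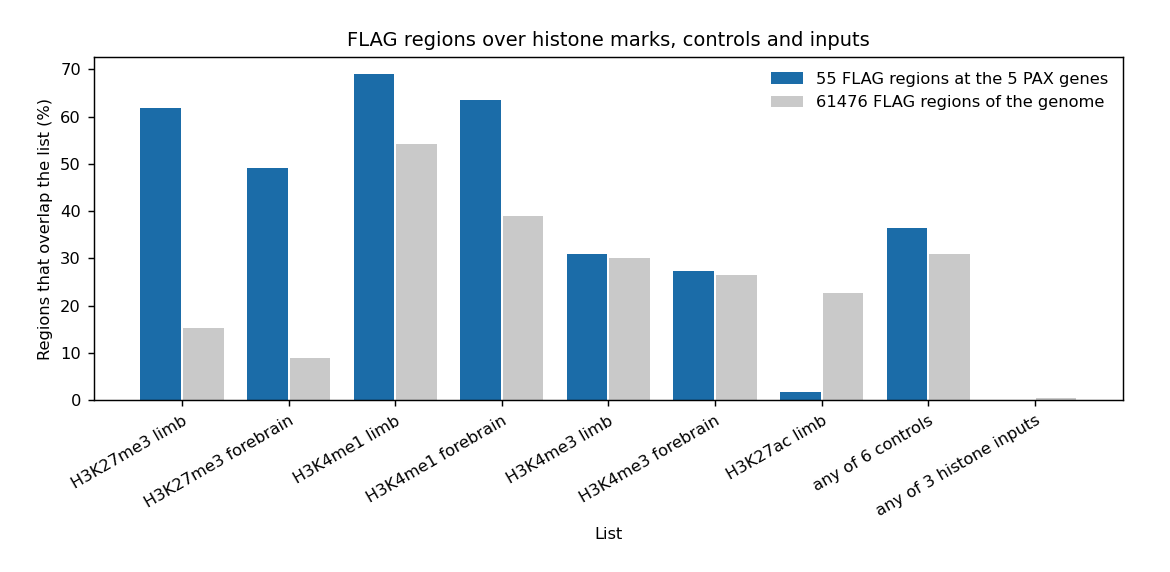
Share of merged FLAG regions (%) that overlap each histone mark, any of the 6 controls or any of the 3 histone inputs by at least 1 bp, for the 55 regions at the PAX genes (blue) and for all 61476 regions (grey). The blue bars for H3K27me3 reach 61.8% in limb and 49.1% in forebrain beside grey bars of 15.3% and 8.98%, and the blue bar for H3K27ac stands at 1.82%.

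Of the other PAX genes, Pax5 had 7 FLAG regions and 12 SMARCA4 peaks and Pax8 had 6 regions and 9 SMARCA4 peaks, both below the medians of 9 regions and 14 SMARCA4 peaks over all placed genes. Pax1 and Pax4 were named by 0 peaks of the tables and have no point. Limb H3K27me3 covered the points of both Pax5 and Pax8, and forebrain H3K27me3 that of Pax8. Within 100 kb the limb mark covered 47.9 kb at Pax5 (reached by 2.14% of placed genes), more than at Pax6 or Pax9. At Pax8 it covered 14.9 kb (18.6%). In forebrain the mark covered 5.32 kb at Pax5 (13.9%) and 9.62 kb at Pax8 (5.97%), less than at any of the 5 genes. Of 10 listed partner genes, EYA and DACH genes among them, 9 had a point, and their median was 9 regions, with 1 at Eya4 to 19 at Eya2.

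By the pattern of SMARCA4 peaks over the 8 lists, scaled to list length and compared by cosine similarity among 11231 genes with at least 10 such peaks, the genes most like Pax2 were Dido1 (0.989), 2310016C16Rik (0.986) and Nagk (0.976). Those most like Pax3 were Pvalb (0.996), Dnajb10 (0.988) and Eomes (0.984), and those most like Pax7 were Nt5c1a (0.978), Arid3c (0.970) and Mef2b (0.966). Cyb5b (1), Scin (0.990) and Dusp15 (0.983) were nearest to Pax6, and AK018968 (1.000), 7420426K07Rik (0.980) and AK019889 (0.956) to Pax9. Pax6 and Pax9 have only 6 and 9 SMARCA4 peaks, so their patterns rest on few counts.

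Lists were checked against marker genes of their tissue. Face SMARCA4 had 50 peaks at its 4 markers, heart 43, neural tube 16, ESC 16, forebrain 9, limb 5 at the 2 placed of 4, midbrain 4 and hindbrain 3. Each list had a peak at all its placed markers except midbrain, hindbrain and ESC, with 3 of 4 each. Of all placed genes, 98.0% had a peak in face, 89.9% in neural tube, 74.4% in heart and 71.5% in forebrain. The shares were 63.1% in limb, 61.1% in ESC, 58.8% in hindbrain and 19.7% in midbrain. The hindbrain list, whose labels conflict, had 5 peaks at face markers, 4 at heart markers and 2 at forebrain markers, so its own markers do not set it apart. The face list had more peaks than the own list at the markers of every tissue but heart. At 4 endothelial markers the lists had 0 (midbrain) to 22 (face) peaks. Median tags of a peak at the PAX genes were 88 in SMARCC2 face, against 87 in its whole list, and 33.5 in SMARCA4 midbrain, against 31. They were 25 in NCOA2 (against 36), 8.50 in EP300 ESC (against 7) and 7.50 in SMARCA4 ESC (against 9). Tags do not give depth, since peak widths differ too. The median width was 1590 bp in the SMARCC2 face list and 144 bp in that of EP300 ESC. Library depth is unknown.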

How the data were processed

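Chromatin immunoprecipitation sequencing was analysed from 30 peak lists of 34 samples, 1 library per condition; 4 control samples have no list here and were not analysed here. Per the submitters' processing notes, reads were mapped with BWA to mm9; the peak caller is not given in the sources used here. Per the labels, fragments of 300 to 500 bp were sequenced as reads of 36 or 50 bp. Per the file headers, 16 deposited tables give for each peak a count of tags, a score (−10 times the log10 of a p-value), a ratio named fold enrichment, the percent false discovery rate, a conservation score of unstated scale and the nearest gene. The other 14 deposited lists give positions and a rank. In tables, rank was set here by the authors' score.

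A gene's point was the base on which at least 2 summits agreed after adding or subtracting the listed distance; 2369 symbols had more than 1, and that with most support, then the lowest coordinate, was used. Peaks counted by midpoint within 100 kb. FLAG peaks overlapping by 1 bp were merged, with exact Poisson intervals for counts and Clopper-Pearson intervals for shares, both at 95% and covering counting error only. No test was run, since conditions have no replicates. Library depth is unknown. Named genes were the 5 PAX genes, the other PAX genes, the listed partner genes, nearest genes of the peaks and the 3 genes of most similar SMARCA4 pattern per member, each over 1 Mb away from the members and from one another. Values of 1 listed partner gene are not reported here. The genes and lists were chosen with earlier results of these data known. RefSeq promoters were matched by symbol. Python 3.11.15, numpy 2.4.6 and scipy 1.17.1 were used, and counting was tested on simulated data. Alternatives changed the territory, the counting rule, peaks near the point, peaks over controls, list length, merging and the SMARCA4 face list.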

Additional observations from a re-analysis of the deposited data

How the results depend on the processing

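Within 50 kb, Pax2 had 8 FLAG regions, Pax3 4, Pax6 3 and Pax7 8; the 5 genes had 18 SMARCA4 peaks in face, 14 in neural tube and 1 in midbrain, 15 in the midbrain control and 19 in the EP300 face control, and 0% of regions overlapped H3K27ac. Within 200 kb, Pax2 had 34 regions, Pax3 15, Pax6 10 and Pax7 30; SMARCA4 in face had 62 peaks, EP300 in face 1 and its control 49, and 60.4% of regions overlapped H3K27me3 and 5.94% (6 of 101) H3K27ac. Counts rise with the size of the territory, but shares need not. The share of regions over H3K27me3 was 86.7% (26 of 30) within 50 kb, 78.2% within 100 kb and 60.4% within 200 kb. The cause of this fall was not tested. Without peaks over a control, Pax2 had 11 regions, Pax3 4 and Pax9 5, and SMARCA4 had 18 peaks in face and 9 in neural tube. With each FLAG list limited to its 1414 highest-ranked peaks, Pax2, Pax6 and Pax7 had 1 region each and Pax3 and Pax9 had 0; SMARCA4 had 0 peaks in face and neural tube and 1 in midbrain, and of the 3 regions 100% overlapped H3K27me3 and 0% H3K27ac, against 24.2% and 45.7% of the 12468 regions of the genome under this setting. The cause was not tested beyond the fewer peaks that both settings leave. Without the SMARCA4 face list, Pax9 had 2 regions. Counting any base, leaving out peaks within 1 kb of the point and merging at a stricter overlap left these counts and shares within the limits set, as did the other Pax6 point and region midpoints, both chosen after seeing the data. Of 705 single values per list and gene, 599 stayed within 1.5 times, 79 were lower and 27 higher. Many of these were 0 or belonged to a gene or list that the setting leaves untouched, so they could not fall. The 599 are therefore no measure of stability. Of the main results, 9 of 11 were lower within 50 kb and 7 of 11 higher within 200 kb. With limited lists 8 of 9 were lower, and without peaks over a control 5 of 9. No paired analysis was possible because each condition has 1 library and no test was run.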
